A study of Mus musculus with 12 samples.

Results

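The genes described here are those of the motile cilium, 45 rows of a table of 16389 genes measured in eGFP+ cells of the mouse spinal cord. They were chosen from 34 gene names of the ciliary program of ependymal cells and from all symbols that begin with Dnah, Dnaic, Tekt or Rsph and a digit. This rule names 52 genes, of which 33 of the 34 listed ones and 12 found by their symbol were in the table. Mcidas, Dnah3, Dnah7c, Dnah12, Dnah14, Rsph6a and Tekt5 were not analysed here. Of the 45, 14 stand in the table under an older symbol, such as 1700009P17Rik for Cfap126, Ccdc164 for Drc1 and Rtdr1 for Rsph14.

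All 12 libraries came from live eGFP+ cells sorted from adult male Aldh1l1-EGFP mice on a Swiss Webster background, in which the promoter of the astrocyte gene Aldh1l1 drives eGFP. The 5 groups were uninjured mice (NI, 3 libraries), mice 1 week (3 libraries) and 2 weeks (2 libraries) after hemisection of the thoracic cord (HS), and mice 1 week (1 library) and 2 weeks (3 libraries) after full transection (FT). The methods list more animals than libraries in each group, so a library can hold cells of several animals, and nothing else in the labels says how libraries of a group relate, so p-values measure only the spread between these libraries. FT 1 week had no replicate, and its standard error is borrowed from the other groups. The libraries held 8270643 to 15562378 reads over the genes of the table, and 1 read was worth 0.0612 to 0.134 normalized counts, the unit of all levels given here.

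Motile cilia are the beating hairs by which the ependymal cells of the central canal and ventricles move cerebrospinal fluid. Their core, the axoneme, is a ring of doublet microtubules around a central pair. Dynein arms power the sliding of the doublets, radial spokes and the central pair control it, and the nexin-dynein regulatory complex links neighbouring doublets. The forkhead factor Foxj1 and the RFX factors, which bind a paired sequence called the X-box, switch on the genes of this structure.

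Because these genes share their regulators, their promoters were searched for 3 motifs on both strands, in windows from 250 bases before to 50 bases after the start (RefSeq, GRCm38.p6). The motifs were the single RFX site GTTGCC, a whole X-box of GTNNCC and NGNAAC with 0 to 3 bases between, and the forkhead sequence GTAAACA. A whole X-box can overlap a single site. Promoters were found for 39 of the 45 genes, 45 windows in all, and not for Armc4, Foxj1, Lrrc6, Rsph1, Rsph4a and Ttc25. The windows below belong to Iqca and Ccdc153, among the genes whose levels varied most between libraries, to Tekt2, whose adjusted p was the lowest of the 45, to Tekt1, which has 2 single sites and no whole X-box, and to Tmem212, the most abundant member, which has no match. Where a gene has several windows, one with the most matches is shown, and capitals mark the matches.
Iqca, chr1:90153387-90153686, minus strand: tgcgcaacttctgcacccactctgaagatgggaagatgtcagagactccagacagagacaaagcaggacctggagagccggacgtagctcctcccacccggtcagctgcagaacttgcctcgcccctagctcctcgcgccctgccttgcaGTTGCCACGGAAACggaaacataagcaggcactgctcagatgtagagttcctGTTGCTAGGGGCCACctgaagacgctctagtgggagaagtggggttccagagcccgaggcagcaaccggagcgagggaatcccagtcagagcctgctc
Ccdc153, chr9:44240427-44240726, plus strand: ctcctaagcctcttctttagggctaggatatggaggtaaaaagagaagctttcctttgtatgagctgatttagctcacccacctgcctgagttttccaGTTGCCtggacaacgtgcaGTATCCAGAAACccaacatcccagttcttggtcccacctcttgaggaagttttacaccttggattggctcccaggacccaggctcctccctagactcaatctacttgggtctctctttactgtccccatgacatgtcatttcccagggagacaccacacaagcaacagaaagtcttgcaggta
Tekt2, chr4:126325597-126325896, minus strand: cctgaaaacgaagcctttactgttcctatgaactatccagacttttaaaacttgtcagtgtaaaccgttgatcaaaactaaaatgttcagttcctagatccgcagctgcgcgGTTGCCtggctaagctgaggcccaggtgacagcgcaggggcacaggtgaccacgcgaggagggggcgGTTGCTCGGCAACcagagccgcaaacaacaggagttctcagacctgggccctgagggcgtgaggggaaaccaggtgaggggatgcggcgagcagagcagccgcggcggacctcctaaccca
Tekt1, chr11:72361833-72362132, minus strand: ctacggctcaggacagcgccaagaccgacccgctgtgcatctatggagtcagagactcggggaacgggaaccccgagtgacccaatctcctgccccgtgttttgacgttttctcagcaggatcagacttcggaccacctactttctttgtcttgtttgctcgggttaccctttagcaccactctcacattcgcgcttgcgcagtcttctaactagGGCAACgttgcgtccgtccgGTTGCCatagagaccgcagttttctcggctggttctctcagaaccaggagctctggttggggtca
Tmem212, chr3:27896319-27896618, minus strand: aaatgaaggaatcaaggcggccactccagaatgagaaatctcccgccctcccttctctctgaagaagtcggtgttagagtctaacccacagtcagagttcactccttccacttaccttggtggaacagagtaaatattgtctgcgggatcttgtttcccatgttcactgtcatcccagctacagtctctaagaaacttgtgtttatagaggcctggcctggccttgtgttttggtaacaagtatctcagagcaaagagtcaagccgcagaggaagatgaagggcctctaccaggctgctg

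A whole X-box was found in 17 of the 45 windows (37.8%) and in 5.25% of all 32851 windows. The single site was found in 21 windows (46.7%), against 12.5% of all, and the forkhead sequence in 4 (8.89%), against 3.65% of all. Counted by gene, 15 of 39 members (38.5%) had a whole X-box, against 5.94% of 27025 genes. The members with a whole X-box came from every role described below except the other dynein heavy chains, among them the regulator Rfx2 itself, the dynein genes Dnaic1, Dnaic2 and Dnah9, the assembly factor Zmynd10, the central pair genes Hydin, Spag16 and Spag17, and the tektins Tekt2 and Tekt4. A match is a description of letters and not of binding.

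**Figure D1:**
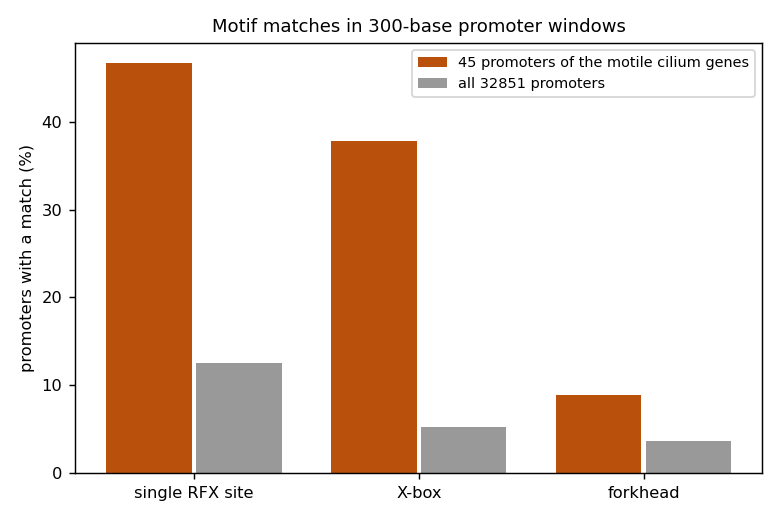
Share of promoter windows (vertical axis, %) with a match to each of 3 motifs, for the 45 windows of the motile cilium genes and all 32851 windows. The bars of the motile cilium genes stand at 46.7%, 37.8% and 8.89%, against 12.5%, 5.25% and 3.65%.

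Motile cilium transcripts were present at low levels in every library. None of the 45 was at 0 in any library, and their means over the 12 libraries ran from 1.25 (Tekt3) to 17.7 (Tmem212) normalized counts. Summed over the 45 genes, the level was 230, 861 and 504 in NI replicates 1, 2 and 3. It was 236, 294 and 660 for HS 1 week, 206 and 203 for HS 2 weeks, 156 for FT 1 week, and 186, 179 and 168 for FT 2 weeks. NI replicate 1 lay close to the injured libraries, and HS 1 week replicate 3 lay among the NI libraries. The HS 2 weeks, FT 1 week and FT 2 weeks libraries all lay below every NI library. In 30 of the 45 genes (66.7%) the 3 highest libraries were NI replicate 2, NI replicate 3 and HS 1 week replicate 3, as they were in 7.12% of all tested genes. NI replicate 2 was the highest library in 34 members (75.6%), against 9.135% of all tested genes.

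**Figure D2:**
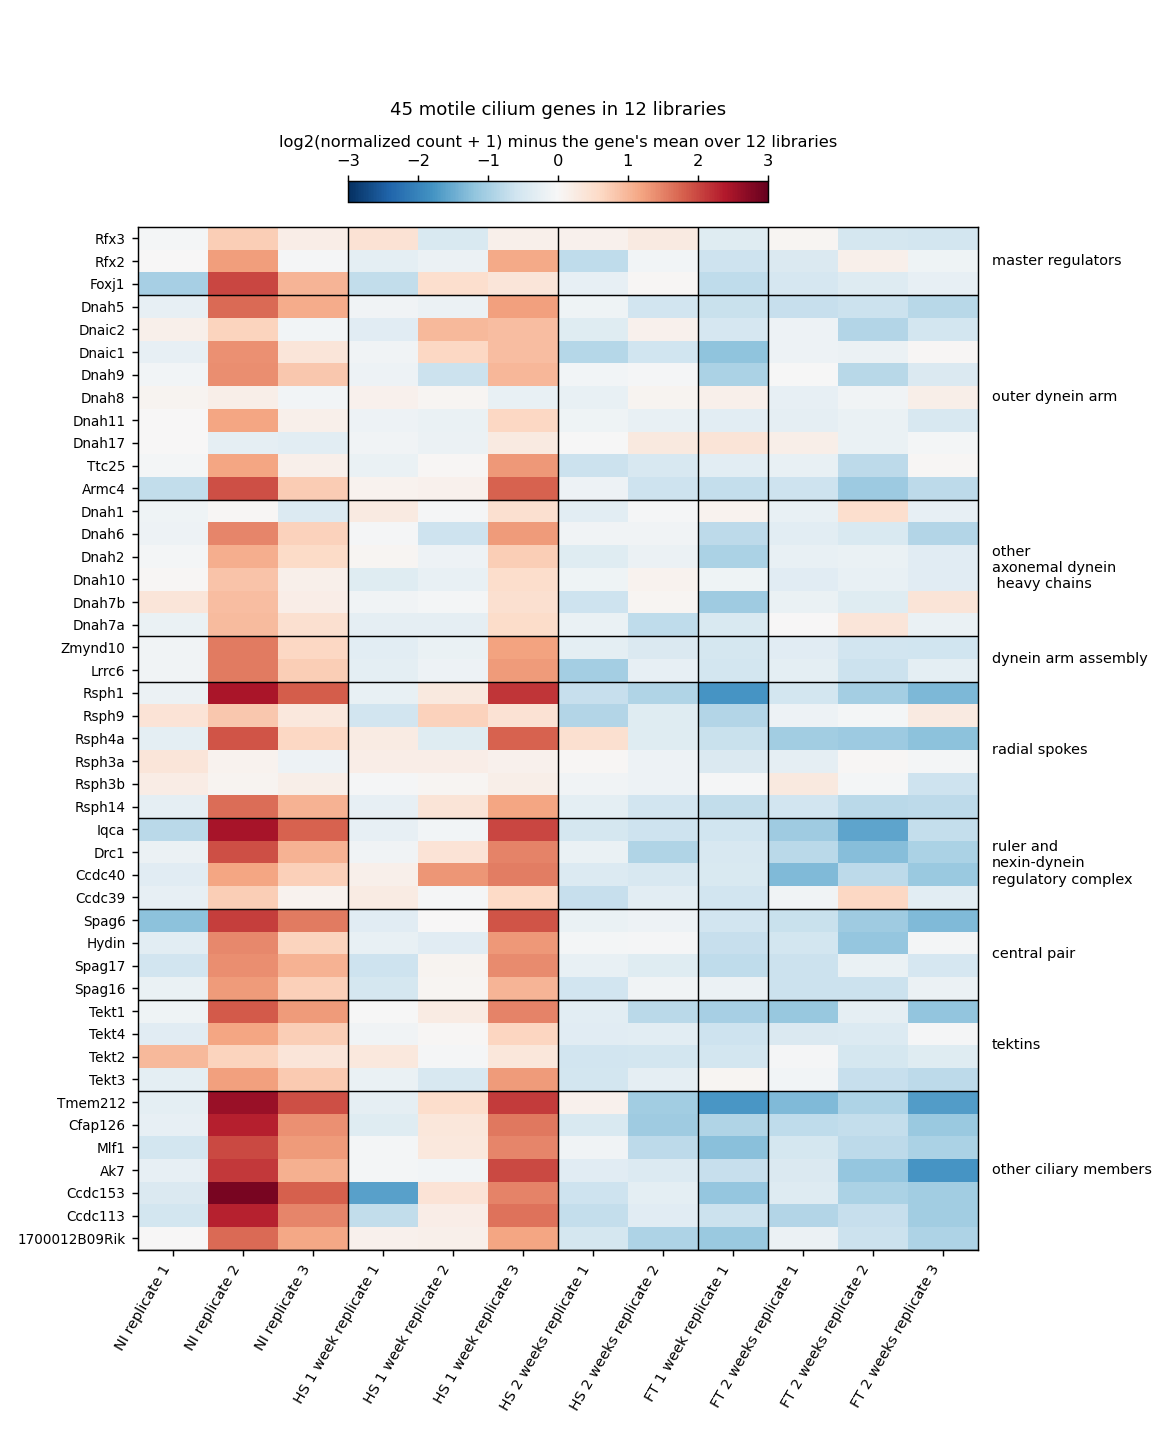
Level of each of the 45 genes (rows, grouped by role) in the 12 libraries (columns), as log2 of the normalized count plus 1 minus the gene's mean over the libraries. Red cells are above and blue cells below that mean, and NI replicates 2 and 3 and HS 1 week replicate 3 are the 3 highest libraries in 30 rows.

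The libraries also differed in markers of other cells. Astrocyte genes (12) summed to 756 to 10210 per library, oligodendrocyte genes (10) to 54300 to 112900, and microglia and macrophage genes (11) to 750 to 12400. Oligodendrocyte markers thus exceeded astrocyte markers in all 12 libraries. The microglia sum was 750, 5269 and 6648 in NI replicates 1, 2 and 3 and 12400 in HS 1 week replicate 3. It also reached 12370 in HS 2 weeks replicate 1 and 11130 for FT 1 week, where the motile cilium sum was low. Pericyte and fibroblast genes (7) summed to 7002 in NI replicate 1, to 641 and 455 in NI replicates 2 and 3 and to 150 in HS 1 week replicate 3. At 2 weeks after FT they summed to 5999, 11580 and 8168, and oligodendrocyte progenitor genes (4) had their 3 highest sums (156.8, 238 and 212.5) in the same libraries as the motile cilium genes. None of these marker genes was at 0 in any library. Their part in the results below was not tested.

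**Figure D3:**
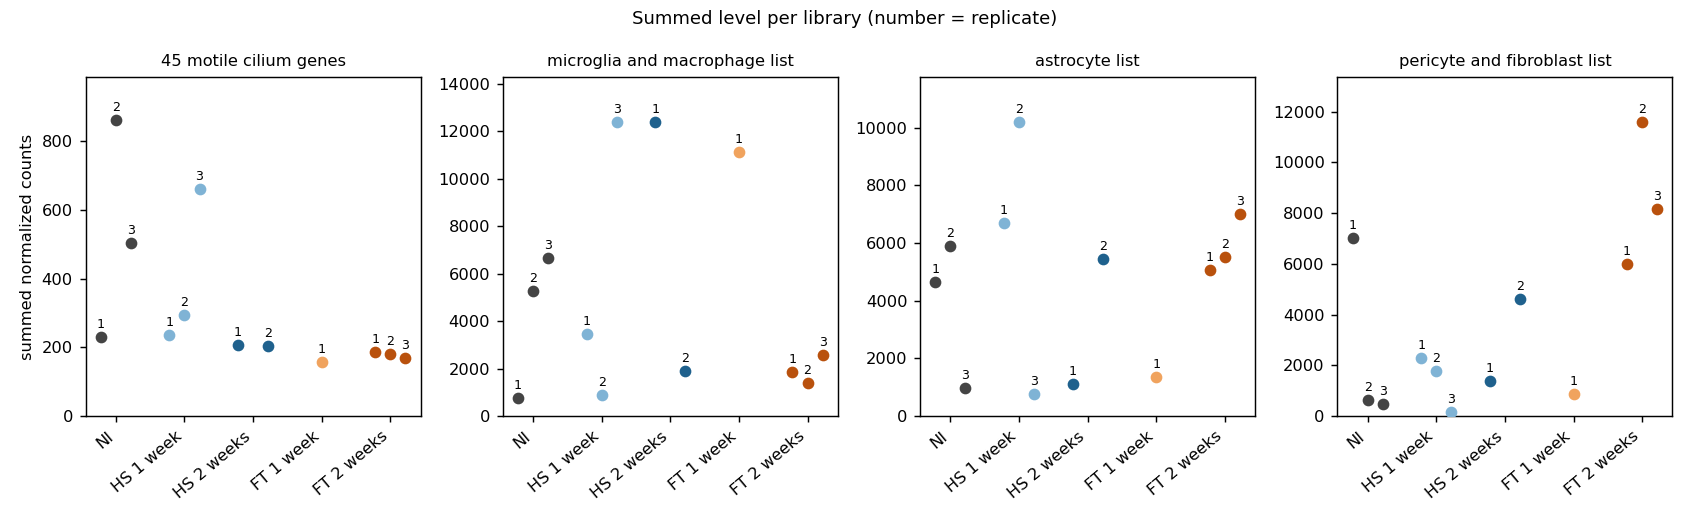
Summed normalized counts (vertical axes) of the motile cilium genes and of 3 marker lists in each library, by group, with the replicate number beside each point. The motile cilium sum reaches 861 in NI replicate 2 and stays between 156 and 206 in HS 2 weeks, FT 1 week and FT 2 weeks.

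Among genes that mark ependymal cells without belonging to the cilium, 7 of 8 were in the table. Cd24a, a surface protein used to sort ependymal cells, had 21.3, 94.1 and 88.8 in NI, 11.8, 24.6 and 58.4 for HS 1 week, 9.96 and 10.4 for HS 2 weeks, 6.45 for FT 1 week and 12.2, 23.1 and 16 for FT 2 weeks. NI replicates 2 and 3 and HS 1 week replicate 3 were its 3 highest libraries, as they were for Mia and for the membrane protein gene Prom1 (6.76, 20.9 and 19.5 in NI and 25.9 in HS 1 week replicate 3). The other 4, which astrocytes or progenitor cells also express, did not share this order. S100b had 2272, 853 and 766 in NI, Vim had 136, 148 and 143, and Sox2 had 18.5, 38.2 and 24.5 in NI but 14.3 in HS 1 week replicate 3. Nes had 1.26, 2.43 and 4.18 in NI and was highest in FT 2 weeks replicate 3 (7.64). The cell source of the motile cilium transcripts was not tested. If they came from ependymal cells, fewer such cells in a sort and less RNA per cell cannot be told apart in these bulk libraries.

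Each gene was tested by limma-trend on log2 of the normalized count plus 1, and the recovered reads were tested by edgeR (likelihood ratio test). A call needs an adjusted p (an FDR in edgeR) under 0.05 over all 16388 tested genes and a change of at least 2-fold. No member was called by limma-trend in any of 9 comparisons, where it called 0% to 0.452% of all tested genes. The likelihood ratio test called 20 members lower in at least 1 comparison. In single comparisons it called 0% to 4.09% of all tested genes, and the share called in at least 1 is not given. Limma-trend gives all libraries equal weight. With array quality weights, which count a library by how closely it follows its group, it called 1 to 33 members lower in the 5 comparisons with NI. In these it called 0.464% to 8.83% of all tested genes. Between injured groups the weighted test called 0 members (FT 1 week against HS 1 week, 1.39% of all tested genes, FT 2 weeks against FT 1 week, 1.8%, and the other two 0%). Log2 fold changes are on the scale of the normalized count plus 1 for limma-trend, which understates changes of low genes.

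Foxj1, the forkhead factor of the motile cilium program (chromosome 11 of GRCm38, 116330704 to 116335499), had 1.57, 19.7 and 9.43 normalized counts in NI replicates 1, 2 and 3, 2.06, 6.25 and 5.63 in those of HS 1 week, 3.34 and 4.25 in those of HS 2 weeks, 2.02 for FT 1 week and 2.63, 2.91 and 3.34 for FT 2 weeks. NI replicate 1 was the lowest of the 12 libraries, with 20 reads against 309 in NI replicate 2, so NI overlapped every injured group. The mean of the 4 injured groups was lower by the likelihood ratio test (log2 fold change -1.67, FDR = 0.0374) and did not pass limma-trend (log2 fold change -0.98, standard error 0.53, adjusted p = 0.446).

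Rfx3 and Rfx2 encode X-box factors with roles outside motile cilia as well. Rfx3 had 12.3, 22.1 and 15 in NI, 17.8, 9.11 and 14.4 for HS 1 week, 14.4 and 15.8 for HS 2 weeks, 9.94 for FT 1 week and 13.5, 8.62 and 8.53 for FT 2 weeks. Rfx2 had 4.79, 12.5 and 4.61 in NI, 3.64, 4.08 and 11.5 for HS 1 week, 2.35 and 4.39 for HS 2 weeks, 2.69 for FT 1 week and 3.21, 5.36 and 4.22 for FT 2 weeks. Of the replicated injured groups, only HS 2 weeks lay below every NI library, and only for Rfx2. At 2 weeks after FT the log2 fold change was -0.63 (standard error 0.31, adjusted p = 0.494) for Rfx3 and -0.55 (standard error 0.46, adjusted p = 0.694) for Rfx2 by limma-trend, and neither gene was called by either test in any comparison.

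The outer dynein arm, the main motor of the ciliary beat, was represented by 9 genes. Dnah5, a heavy chain of this arm (chromosome 15, 28154854 to 28472045), had 6.6, 28.1 and 18.5 normalized counts in NI replicates 1, 2 and 3, 7.39, 7.03 and 20.2 in those of HS 1 week, 7.26 and 5.05 in those of HS 2 weeks, 4.7 for FT 1 week and 4.6, 4.78 and 4.08 for FT 2 weeks. All FT 2 weeks libraries and the FT 1 week library lay below every NI library, while both HS groups overlapped NI. Its log2 fold change at 2 weeks after FT was -1.57 (standard error 0.50, limma-trend adjusted p = 0.347, likelihood ratio test FDR = 0.0263). Armc4, a docking factor of the arm, had 1.34, 13.8 and 5.61 in NI, 3.15, 3.21 and 12.3 for HS 1 week, 2.49 and 1.54 for HS 2 weeks, 1.34 for FT 1 week and 1.53, 0.816 and 1.26 for FT 2 weeks. NI replicate 1 lay inside the range of the FT 2 weeks libraries, and the likelihood ratio test called the gene lower at 2 weeks after FT (FDR = 0.0379, limma-trend adjusted p = 0.439). Dnaic2, an intermediate chain, had 9.35, 13.8 and 7.77 in NI, 6.3, 17.3 and 16.6 for HS 1 week, 6.26 and 9.23 for HS 2 weeks, 5.51 for FT 1 week and 7.3, 4.08 and 5.34 for FT 2 weeks. It was below every NI library in all FT libraries and was not called by either test (FT 2 weeks, limma-trend log2 fold change -0.78, adjusted p = 0.499).

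Dnah8 and Dnah17, outer arm heavy chains best known from sperm, showed the 2 narrowest ranges of the 45 genes. Dnah8 had 7.23, 7.66 and 6.26 in NI, 7.52, 7.11 and 5.63 for HS 1 week, 5.62 and 7.18 for HS 2 weeks, 7.66 for FT 1 week and 5.48, 6.17 and 7.78 for FT 2 weeks, a range of 0.44 on the log2 scale. Dnah17 had 4.56, 3.51 and 3.38 in NI, 4.12, 3.82 and 5.63 for HS 1 week, 4.41 and 5.71 for HS 2 weeks, 6.18 for FT 1 week and 5.19, 3.73 and 4.22 for FT 2 weeks, a range of 0.71. Neither had its highest value in NI, their groups overlapped except for Dnah17 in the FT 1 week library, and per kilobase of exon Dnah8 (0.253 normalized counts) was among the 3 lowest members. At 2 weeks after FT their log2 fold changes were -0.11 (standard error 0.23) and 0.16 (standard error 0.24), with limma-trend adjusted p of 0.883 and 0.84. The remaining outer arm genes Dnaic1, Dnah9, Dnah11 and Ttc25 were highest in NI replicate 2 or HS 1 week replicate 3 and were called in no comparison.

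Of the 6 other dynein heavy chains, which mostly form the inner arms that shape the beat, none was called. Dnah1 had 12.3, 14 and 10 in NI, 16.5, 13.1 and 19.3 for HS 1 week, 10.7 and 13.2 for HS 2 weeks, 14.5 for FT 1 week and 11.4, 19.5 and 11.3 for FT 2 weeks. Every group overlapped NI except the FT 1 week library, which lay above it, and the log2 fold change at 2 weeks after FT was 0.17 (standard error 0.27, limma-trend adjusted p = 0.848). Dnah6 followed the more common order, with 7.7, 25.8 and 14.7 in NI, 8.49, 5.29 and 22.6 for HS 1 week, 8.04 and 7.99 for HS 2 weeks, 4.57 for FT 1 week and 6.72, 6.06 and 4.22 for FT 2 weeks. All FT libraries lay below every NI library (FT 2 weeks, log2 fold change -1.23, standard error 0.50, limma-trend adjusted p = 0.429). Dnah7a and Dnah7b are near-identical copies whose reads cannot be kept apart with certainty.

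Zmynd10 and Lrrc6 encode factors that assemble dynein arms in the cytoplasm before they enter the cilium. Zmynd10 had 6.05, 21.2 and 10.6 normalized counts in NI replicates 1, 2 and 3, 5.09, 5.64 and 16.6 in those of HS 1 week, 5.19 and 4.62 in those of HS 2 weeks, 4.3 for FT 1 week and 5.04, 4.08 and 4 for FT 2 weeks. Lrrc6 had 1.81, 7.85 and 4.03 in NI, 1.46, 1.74 and 6.3 for HS 1 week, 0.498 and 1.54 for HS 2 weeks, 1.07 for FT 1 week and 1.46, 0.932 and 1.48 for FT 2 weeks. For both genes the HS 2 weeks, FT 1 week and FT 2 weeks libraries all lay below every NI library, and HS 1 week overlapped NI. Lrrc6 was called lower in the mean of the injured groups by the likelihood ratio test (FDR = 0.0466), without passing limma-trend (log2 fold change -1.05, standard error 0.40, adjusted p = 0.285). For Zmynd10 the same 2 values were 0.099 (FDR) and 0.307 (adjusted p).

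**Figure D4:**
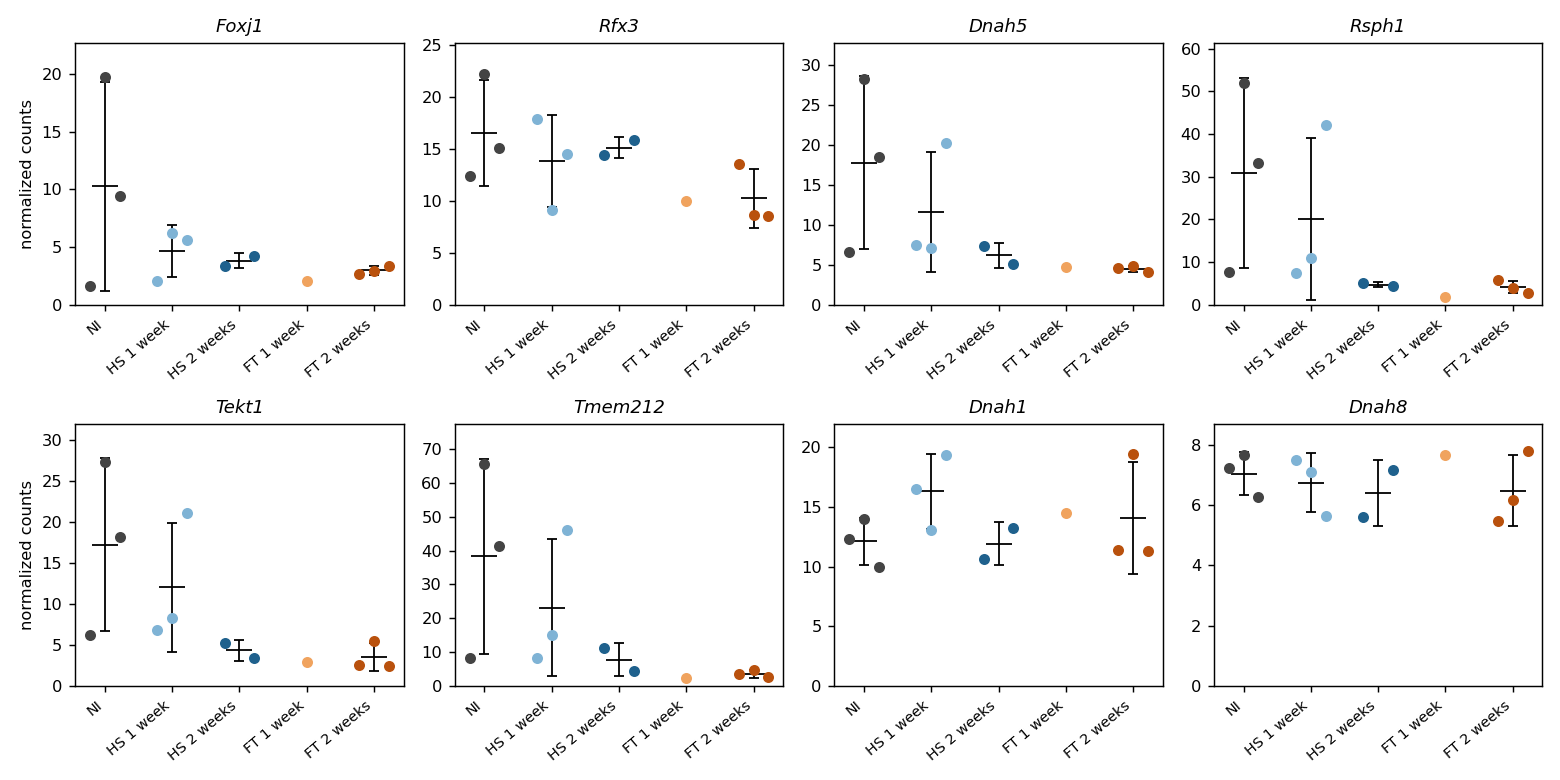
Normalized counts (vertical axes) of 8 genes in each library (points), with the mean and SD of each replicated group (bars). The NI points of Foxj1, Dnah5, Rsph1, Tekt1 and Tmem212 are spread widely, while Dnah8 stays between 5.48 and 7.78 in all libraries.

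Radial spokes carry signals from the central pair to the dynein arms. Rsph1, a gene of the spoke head (chromosome 17, 31255019 to 31277296), had 7.62, 52 and 33.2 normalized counts in NI replicates 1, 2 and 3, 7.39, 10.9 and 42 in those of HS 1 week, 5.05 and 4.25 in those of HS 2 weeks, 1.88 for FT 1 week and 5.7, 3.85 and 2.82 for FT 2 weeks. The HS 2 weeks, FT 1 week and FT 2 weeks libraries lay below every NI library. The likelihood ratio test called it lower at 1 week after FT (log2 fold change -4.03, FDR = 0.0415) and at 2 weeks after FT (log2 fold change -2.90, FDR = 0.00378). Limma-trend gave -3.12 at 1 week (standard error 0.98, adjusted p = 0.269) and -2.33 at 2 weeks (standard error 0.70, adjusted p = 0.347).

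The spoke genes Rsph4a and Rsph14 were also called lower at 2 weeks after FT by the likelihood ratio test. Rsph4a, also of the spoke head, had 3.77, 20.7 and 7.99 in NI, 5.94, 3.56 and 18.7 for HS 1 week, 7.12 and 3.52 for HS 2 weeks, 2.69 for FT 1 week and 1.83, 1.75 and 1.48 for FT 2 weeks (FDR = 0.0105, limma-trend adjusted p = 0.353). Rsph14 had 0.943, 6.51 and 3.81 in NI, 0.97, 2.08 and 4.34 for HS 1 week, 0.925 and 0.586 for HS 2 weeks, 0.403 for FT 1 week and 0.584, 0.349 and 0.371 for FT 2 weeks (FDR = 0.00482, limma-trend adjusted p = 0.347). In both genes all FT libraries lay below every NI library, and Rsph14 rested on 3 to 102 reads per library.

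Rsph9, the third spoke head gene, had 16.1, 21.7 and 15 in NI, 7.64, 19.7 and 16.3 for HS 1 week, 6.05 and 8.94 for HS 2 weeks, 6.04 for FT 1 week and 10.5, 11.3 and 14.5 for FT 2 weeks, with a narrower range than the other spoke head genes. Its HS 2 weeks, FT 1 week and FT 2 weeks libraries all lay below every NI library, and it was called in no comparison (FT 2 weeks, log2 fold change -0.50, standard error 0.34, limma-trend adjusted p = 0.617). Rsph3a, of the spoke stalk, had 4.17, 3.32 and 2.66 in NI, 3.64, 3.64 and 3.43 for HS 1 week, 3.13 and 2.64 for HS 2 weeks, 2.02 for FT 1 week and 2.34, 3.15 and 2.89 for FT 2 weeks, the third narrowest range of all members (0.78 on the log2 scale). Every HS 1 week library lay above its NI mean and both HS 2 weeks libraries and the FT 1 week library below it, all inside the NI range apart from the FT 1 week library and HS 2 weeks replicate 2. Its near-identical copy Rsph3b ranged from 1.33 to 3.43, and the split of reads between both is uncertain.

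Ccdc39 and Ccdc40 form the ruler that spaces the spokes and inner arms along the doublets, and Drc1 and Iqca belong to the nexin-dynein regulatory complex. Iqca had 3.06, 38.7 and 23.2 normalized counts in NI replicates 1, 2 and 3, 5.09, 5.81 and 27.9 in those of HS 1 week, 3.98 and 3.66 in those of HS 2 weeks, 3.76 for FT 1 week and 2.41, 1.4 and 3.34 for FT 2 weeks. NI replicate 1 lay below both HS 2 weeks libraries and inside the range of FT 2 weeks. Drc1 (chromosome 5, 30281335 to 30366695) had 6.21, 29.8 and 15.8 in NI, 6.55, 9.8 and 21.7 for HS 1 week, 6.05 and 3.37 for HS 2 weeks, 4.83 for FT 1 week and 3.65, 2.33 and 3.19 for FT 2 weeks. For Drc1 the libraries of HS 2 weeks, FT 1 week and FT 2 weeks lay below every NI library. Ccdc40 had 4.48, 14.8 and 10.4 in NI, 6.67, 16.3 and 18.9 for HS 1 week, 4.2 and 3.96 for HS 2 weeks, 4.03 for FT 1 week and 1.75, 3.03 and 2.22 for FT 2 weeks, with the same 3 groups below NI and HS 1 week above NI in 2 of its libraries.

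At 2 weeks after FT the likelihood ratio test called these 3 genes lower, with FDRs of 0.00646 (Iqca), 0.00558 (Drc1) and 0.0132 (Ccdc40). The limma-trend log2 fold changes were -2.26 (standard error 0.80), -1.95 (standard error 0.53) and -1.59 (standard error 0.44), with adjusted p of 0.391, 0.333 and 0.342. Ccdc39, the partner of Ccdc40, was not called in any comparison, and its FT 2 weeks libraries (6.06, 10.7 and 5.19) overlapped NI (5.42, 11.7 and 7.20).

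The central pair is built by Spag6, Hydin, Spag16 and Spag17 among others. Spag6 had 2.28, 31.5 and 21.6 normalized counts in NI replicates 1, 2 and 3, 5.09, 6.77 and 27.1 in those of HS 1 week, 5.62 and 5.86 in those of HS 2 weeks, 4.16 for FT 1 week and 3.8, 2.68 and 2.08 for FT 2 weeks. NI replicate 1 lay inside the FT 2 weeks range and was lower than every other library but FT 2 weeks replicate 3. The gene was called lower at 2 weeks after FT by the likelihood ratio test (FDR = 0.0228, limma-trend adjusted p = 0.448), and a near-identical copy makes the identity of its reads uncertain. Hydin had 5.03, 19.3 and 11 in NI, 5.46, 4.95 and 17.6 for HS 1 week, 6.19 and 6.37 for HS 2 weeks, 3.63 for FT 1 week and 4.09, 2.33 and 6.23 for FT 2 weeks, with HS 2 weeks inside the NI range and no call (FT 2 weeks, log2 fold change -1.20, standard error 0.53, limma-trend adjusted p = 0.454). In all 4 central pair genes the 3 highest libraries were NI replicate 2, NI replicate 3 and HS 1 week replicate 3.

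Tektins are filament proteins inside the doublet microtubules. Tekt1 (chromosome 11, 72344717 to 72362442) had 6.21, 27.3 and 18.1 normalized counts in NI replicates 1, 2 and 3, 6.79, 8.24 and 21.1 in those of HS 1 week, 5.26 and 3.44 in those of HS 2 weeks, 2.96 for FT 1 week and 2.56, 5.48 and 2.45 for FT 2 weeks. The HS 2 weeks, FT 1 week and FT 2 weeks libraries lay below every NI library, and the likelihood ratio test called the gene lower at 2 weeks after FT (log2 fold change -2.31, FDR = 0.0129). By limma-trend its log2 fold change was -1.87 (standard error 0.54, adjusted p = 0.347). Tekt4 had 3.14, 10.8 and 7.7 in NI, 3.88, 4.34 and 7.22 for HS 1 week, 3.13 and 3.22 for HS 2 weeks, 2.42 for FT 1 week and 2.85, 2.91 and 4.08 for FT 2 weeks and was called in no comparison (FT 2 weeks, limma-trend log2 fold change -0.83, adjusted p = 0.462).

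Tekt2 (chromosome 4, 126322121 to 126325688) stood apart from the common order, with 3.77, 2.87 and 2.16 normalized counts in NI replicates 1, 2 and 3, 2.06, 1.39 and 2.08 in those of HS 1 week, 0.64 and 0.659 in those of HS 2 weeks, 0.671 for FT 1 week and 1.39, 0.699 and 0.889 for FT 2 weeks. NI replicate 1 was its highest library, and it was the single member (2.22%, against 0.995% of all tested genes) for which every injured library lay below every NI library. The counts were small, 30 to 48 reads in NI and 5 to 34 in the injured libraries. The mean of the injured groups had a log2 fold change of -0.97 (standard error 0.19, limma-trend adjusted p = 0.0712), the lowest adjusted p of the 45 genes in any comparison. It was called lower by the likelihood ratio test in this comparison (FDR = 0.00298) and at 2 weeks after HS (log2 fold change -2.16, FDR = 0.033, limma-trend adjusted p = 0.286).

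The last group held 7 ciliary genes that were not assigned to these structures here. In all of them the 3 highest libraries were NI replicate 2, NI replicate 3 and HS 1 week replicate 3. Tmem212, a transmembrane protein gene (chromosome 3, 27866065 to 27896391), had 8.09, 65.6 and 41.3 normalized counts in NI replicates 1, 2 and 3, 8.12, 15 and 46.2 in those of HS 1 week, 11.2 and 4.32 in those of HS 2 weeks, 2.28 for FT 1 week and 3.43, 4.78 and 2.45 for FT 2 weeks. It had the highest level per kilobase of exon of all members (24.8 normalized counts), and all FT libraries lay below every NI library. At 2 weeks after FT its log2 fold change was -2.73 by limma-trend (standard error 0.75, adjusted p = 0.337), and the likelihood ratio test called it lower (log2 fold change -3.44, FDR = 0.000687). It was also called lower by the latter at 1 week after FT (FDR = 0.0482, limma-trend log2 fold change -3.17, standard error 1.06, adjusted p = 0.292).

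Cfap126, which helps to position the basal body at the foot of the cilium, had 6.84, 45.7 and 23 normalized counts in NI replicates 1, 2 and 3, 6.3, 10.8 and 26.9 in those of HS 1 week, 5.83 and 3.44 in those of HS 2 weeks, 4.03 for FT 1 week and 4.53, 4.66 and 3.34 for FT 2 weeks. Ak7, an adenylate kinase that supplies the axoneme with energy, had 5.5, 32.2 and 15.2 in NI, 6.42, 6.25 and 29.3 for HS 1 week, 5.05 and 4.76 for HS 2 weeks, 3.76 for FT 1 week and 4.67, 2.45 and 1.26 for FT 2 weeks. For both genes the HS 2 weeks, FT 1 week and FT 2 weeks libraries lay below every NI library. Mlf1 had 5.74, 37.8 and 22.7 in NI, 8.37, 11.2 and 25.9 for HS 1 week, 8.18 and 4.69 for HS 2 weeks, 3.09 for FT 1 week and 5.84, 4.66 and 4.08 for FT 2 weeks. Here HS 2 weeks replicate 1 and FT 2 weeks replicate 1 lay above NI replicate 1, so the groups overlapped.

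Ccdc153 had the widest range of all members (4.48 on the log2 scale), with 3.77, 45.6 and 21.6 in NI, 1.09, 7.63 and 17.1 for HS 1 week, 3.2 and 4.32 for HS 2 weeks, 1.88 for FT 1 week and 3.94, 2.33 and 2.15 for FT 2 weeks. NI replicate 1 lay inside the HS 2 weeks and FT 2 weeks ranges, and HS 1 week replicate 1 was the lowest library. Ccdc113 had 1.65, 18.1 and 9.64 in NI, 1.33, 3.47 and 11 for HS 1 week, 1.35 and 2.05 for HS 2 weeks, 1.48 for FT 1 week and 1.09, 1.4 and 0.889 for FT 2 weeks. Its FT libraries lay below every NI library, with FT 1 week close to NI replicate 1.

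1700012B09Rik (chromosome 9, 14756592 to 14771049) had 1.49, 6.96 and 4.46 normalized counts in NI replicates 1, 2 and 3, 1.7, 1.74 and 4.59 in those of HS 1 week, 0.712 and 0.293 in those of HS 2 weeks, 0.134 for FT 1 week and 1.17, 0.583 and 0.296 for FT 2 weeks. The HS 2 weeks, FT 1 week and FT 2 weeks libraries lay below every NI library, and the FT 1 week value was a single read. The likelihood ratio test called it lower at 2 weeks after HS (FDR = 0.0338), 1 week after FT (FDR = 0.0403) and 2 weeks after FT (FDR = 0.0129). The limma-trend log2 fold changes were -1.68, -2.07 and -1.53, with adjusted p of 0.487, 0.219 and 0.345. All 7 genes of this group were called lower at 2 weeks after FT by the likelihood ratio test, with FDRs from 0.000687 (Tmem212) to 0.0208 (Mlf1), and limma-trend adjusted p from 0.337 to 0.419.

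Set against NI at 2 weeks after FT, no member passed limma-trend (adjusted p under 0.05 and at least 2-fold), which called 0.0427% of all tested genes. The quasi-likelihood test of edgeR called 0 as well, while 28 of the 45 (62.2%) had an unadjusted limma-trend p under 0.05, against 10.82% of all tested genes. The likelihood ratio test of edgeR, the kind of test the study used, called 17 of the 45 lower and none higher, where it called 2.22% of all tested genes. DESeq2 called 17, and its shares of all tested genes are not given here or below. The median log2 fold change of the members was -1.10 by limma-trend, against -0.01 for all tested genes, and 43 of 45 were below 0 (95.6%, against 51.6%). The 17 were the 7 genes of the last group, Dnah5 and Armc4 of the outer arm, Rsph1, Rsph4a and Rsph14 of the spokes, Iqca, Drc1 and Ccdc40, Spag6 and Tekt1. By role, the median log2 fold change ran from -2.01 in the last group and -1.77 in the ruler and regulatory complex to -0.60 in the other dynein heavy chains. In 21 members (46.7%, against 7.99% of all tested genes) every FT 2 weeks library lay below every NI library. As 30 of the 45 shared their 3 highest libraries, the members are not independent of each other. Such counts, here and below, do not stand for as many separate results.

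These counts turned on the weight of single libraries. With array quality weights limma-trend called 29 members lower (8.83% of all tested genes called). Without NI replicate 1, whose motile cilium sum was the lowest of NI, limma-trend called 14 members lower at 2 weeks after FT, 13 of them among the 17, and the likelihood ratio test called 27. Without NI replicate 2 the likelihood ratio test called 1, without NI replicate 3 it called 10, and without FT 2 weeks replicates 1, 2 or 3 it called 5, 2 and 2. For counts with a library left out, here and below, the shares of all tested genes are not given. Such counts do not show whether a change was particular to the members.

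**Figure D5:**
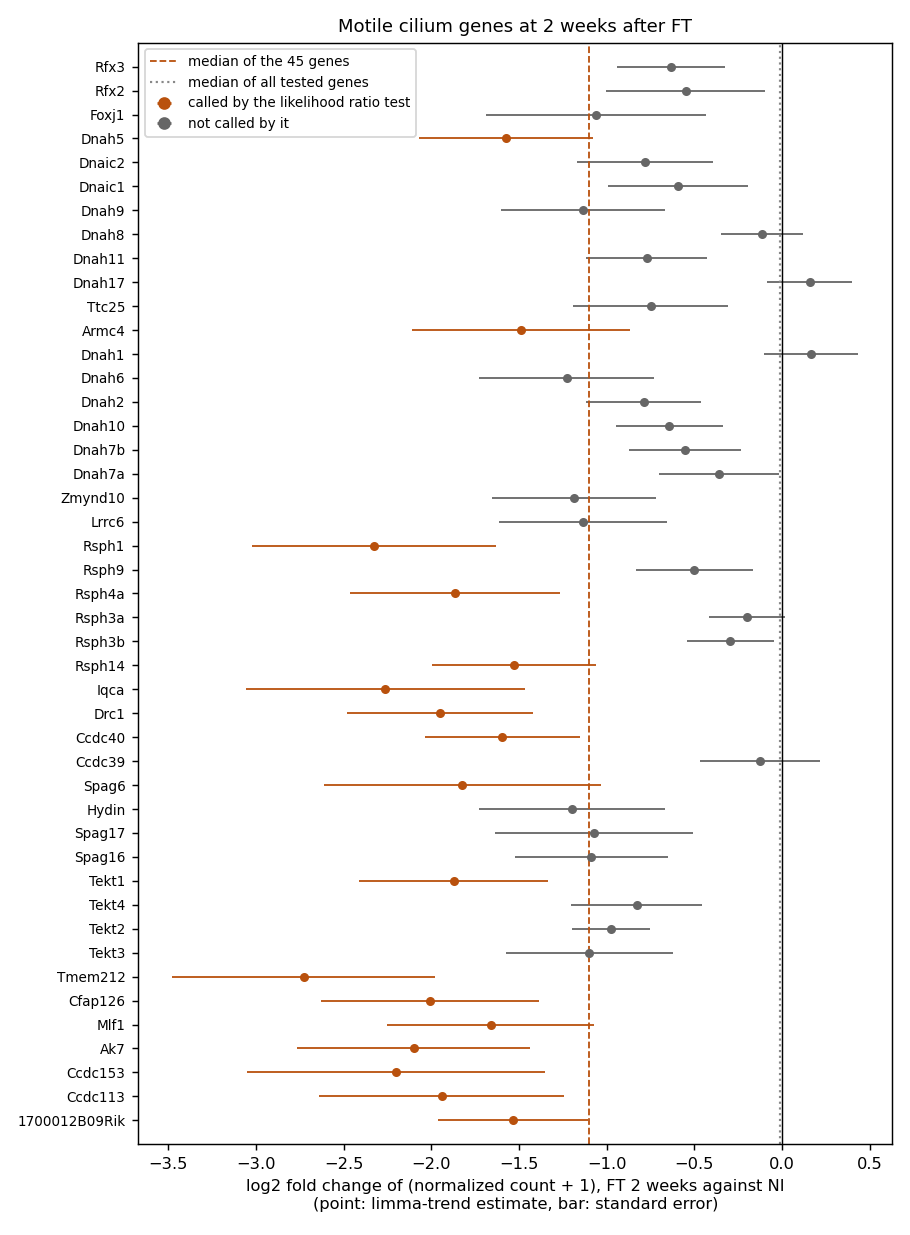
Log2 fold change of each motile cilium gene (rows, ordered by role) at 2 weeks after FT against NI, as the limma-trend estimate with its standard error, orange where the likelihood ratio test called the gene. The orange dashed line marks the median of the 45 genes (-1.10) and the grey dotted line that of all tested genes (-0.01), and Dnah1 and Dnah17 are the 2 genes above 0.

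At 1 week after HS no member was called by limma-trend, the quasi-likelihood test, the likelihood ratio test or DESeq2, and none had an unadjusted limma-trend p under 0.05. Limma-trend called 0.0061% and the likelihood ratio test 0.372% of all tested genes. With array quality weights limma-trend called 24 members lower (7.73% of all tested genes called), with a median of -1.07. The median log2 fold change of the members with equal weights was -0.36, against -0.03 for all tested genes, 38 of 45 were below 0 (84.4%, against 53.7%), and Tekt2 was the only member with every HS 1 week library below every NI library (2.22%, against 5.02% of all tested genes).

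At 2 weeks after HS limma-trend and the quasi-likelihood test called 0 members, with 12 at an unadjusted limma-trend p under 0.05 (26.7%, against 7.49% of all tested genes) and 0.0122% of all tested genes called. Array quality weights gave 1 member (0.464% of all). Tekt2 and 1700012B09Rik were called by the likelihood ratio test (0.757% of all tested genes), and DESeq2 called 2. The median log2 fold change was -0.97, against -0.02 for all, and in 20 members (44.4%, against 11.6%) both HS 2 weeks libraries lay below every NI library. The likelihood ratio count was 15 without NI replicate 1, 4 without HS 1 week replicate 3, 1 without NI replicate 3 or FT 2 weeks replicate 3, and 0 without NI replicate 2 or either HS 2 weeks library.

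In the single FT 1 week library limma-trend and the quasi-likelihood test called 0 members against NI, with 13 at an unadjusted limma-trend p under 0.05 (28.9%, against 11.21% of all tested genes) and 0.452% of all tested genes called. Array quality weights gave 16 members (5.66% of all). Tmem212, Rsph1 and 1700012B09Rik were called lower by the likelihood ratio test (1.81% of all tested genes), and DESeq2 called 2. The median log2 fold change was -1.38, against -0.02 for all, and 36 members (80%, against 30.1%) lay below every NI library while Dnah1 and Dnah17 lay above. The likelihood ratio count was 10 without NI replicate 1, 0 without NI replicate 2, NI replicate 3 or FT 2 weeks replicate 2, and 1 without FT 2 weeks replicate 1 or 3. Limma-trend called 1, 1700012B09Rik, without NI replicate 1.

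In the mean of the 4 injured groups against NI, limma-trend and the quasi-likelihood test called 0 members, with 23 at an unadjusted limma-trend p under 0.05 (51.1%, against 13.86% of all tested genes) and 0.293% of all tested genes called. Array quality weights gave 33 members (7.32% of all). Lower calls by the likelihood ratio test numbered 17 (4.09% of all tested genes), and DESeq2 called 14. These 17 held Foxj1, Lrrc6 and Tekt2, which were not called at 2 weeks after FT, and lacked Rsph4a, Ccdc40 and Armc4. The median log2 fold change was -0.92, against -0.03 for all. Without NI replicate 1, limma-trend called 14 and the likelihood ratio test 31, and the latter called 30 without HS 1 week replicate 3, 4 without NI replicate 2 and 10 without NI replicate 3.

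The comparisons with NI share the same 3 NI libraries, so they are not independent of each other. Set directly against each other, FT and HS gave no call for any member in the tests run. At 1 week the FT library had a median log2 difference from HS of -1.01 (all tested genes -0.01), with 0 members called by limma-trend (0.348% of all tested genes), 0 by the likelihood ratio test (0.696%), the quasi-likelihood test and DESeq2. Of the 45, 43 were below 0 (95.6%, against 51.5% of all tested genes) and 9 had an unadjusted limma-trend p under 0.05 (20%, against 5.64%). At 2 weeks the median was -0.17 (all -0.02), 31 were below 0 (68.9%, against 51.9%), none of the 4 tests called a member, limma-trend and the likelihood ratio test called 0% of all tested genes, and 0 members had an unadjusted limma-trend p under 0.05 (2.26% of all tested genes).

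Between the 2 times after injury no member was called either. From 1 to 2 weeks after HS the median was -0.62 (all 0.01), with 0 calls by all 4 tests, 0% of all tested genes called by limma-trend and by the likelihood ratio test, 42 of 45 below 0 (93.3%, against 49.3%) and 4 members at an unadjusted limma-trend p under 0.05 (8.9%, against 1.62% of all tested genes). From 1 to 2 weeks after FT the median was 0.03 (all -0.01), with 0 calls by all 4 tests, 0.384% of all tested genes called by limma-trend and 1.31% by the likelihood ratio test, 19 of 45 below 0 (42.2%, against 51.2%) and 1 member at an unadjusted limma-trend p under 0.05 (2.2%, against 9.17%).

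Other genes of motile cilia, 60 of a list of 61, were set beside the members. Limma-trend called 0 of them in each comparison with NI, with a median log2 fold change of -1.10 at 2 weeks after FT (all tested genes -0.01). Of these 60, the likelihood ratio test called 20 lower at 2 weeks after FT (33.3%, against 2.22% of all tested genes) and 27 in the mean of the injured groups (45%, against 4.09%). It called 1 at 2 weeks after HS (Fam183b) and 1 at 1 week after FT (Dynlrb2), each 1.67% of the list, near the 0.757% and 1.81% of all tested genes, and 0 at 1 week after HS (0.372% of all). Among the most abundant, the microtubule bundling gene Tppp3, which oligodendrocytes also express, had 763 ± 401 (SD, n = 3) in NI, against 878 ± 98.4 (SD, n = 3) in FT 2 weeks, with no call.

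Of the called ones, the dynein light chain gene Dynlrb2 had 31.3 ± 22.9 (SD, n = 3) in NI, against 3.32 ± 0.663 (SD, n = 3) in FT 2 weeks. Fam183b had 30.3 ± 24.1 (SD, n = 3) in NI, against 4.5 ± 0.506 (SD, n = 3) in FT 2 weeks. Odf3b had 23.7 ± 18.7 (SD, n = 3) and 2.54 ± 1.73 (SD, n = 3) in the same groups. Myb, a transcription factor of early multiciliated cell formation, had 22.3 ± 13.6 (SD, n = 3) and 4.88 ± 1.93 (SD, n = 3). Enkur, a protein inside the doublets, had 21.2 ± 15.6 (SD, n = 3) and 4.35 ± 1.61 (SD, n = 3). Dnali1, an inner arm light chain, had 18.4 ± 14.8 (SD, n = 3) and 2.46 ± 0.398 (SD, n = 3). In each of these genes the SD of NI was larger than that of FT 2 weeks.

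The regulatory complex genes Ccdc65, Lrrc48 and Iqcg were also called lower at 2 weeks after FT. Their NI means were 8.16, 13.6 and 11.9 and their FT 2 weeks means 1.36, 2.63 and 2.28. Wdr52, Ccdc19, Lrrc23, Pifo and Capsl had NI means of 14.5, 12.3, 12.3, 11.4 and 10.7 and FT 2 weeks means of 3.69, 1.84, 2.17, 1.67 and 1.57. Low members of the list, with NI means of 2.70 (Gm101) to 4.57 (Nme9), were 1700003M02Rik, Ccdc11, Gm101, Gm872, Morn3 and Nme9, and their FT 2 weeks means were 0.323 to 0.714. Called in the mean of the injured groups alone were Mns1, Ccdc108, Nme5, Calml4, Ccdc37, Wdr96, Wdr16, Wdr63 and Ccdc151, with NI means of 21.1 (Mns1) to 3.95 (Ccdc151) and FT 2 weeks means of 6.67 to 0.970.

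The genes of intraflagellar transport and of the BBSome, which serve all cilia, immotile ones included, were counted in the same way. None of the 37 was called in any comparison by limma-trend or the likelihood ratio test. These tests called 0.0427% and 2.22% of all tested genes at 2 weeks after FT. In the mean of the injured groups they called 0.293% and 4.09%, so no call among 37 genes is near these shares. Their median log2 fold change by limma-trend was 0.11 at 2 weeks after FT and -0.03 in the mean of the injured groups. The kinesin motor gene Kif3a had 161 ± 48.6 (SD, n = 3) in NI, against 182 ± 11.2 (SD, n = 3) in FT 2 weeks, Ift46 had 110.1 ± 31.9 (SD, n = 3) and 124 ± 14.2 (SD, n = 3), and Kifap3 had 83 ± 2.19 (SD, n = 3) and 88.3 ± 10.8 (SD, n = 3). Whether this list differed from the motile cilium genes was not tested.

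Of the 7 ependymal genes outside the cilium, 4 were below 0 at 2 weeks after FT, near the 51.6% of all tested genes. Their median log2 fold change was -0.58, against -0.01 for all tested genes. Limma-trend called 0 in each comparison (0% to 0.452% of all tested genes). The likelihood ratio test called Cd24a lower in each comparison with NI but HS 1 week. At 2 weeks after HS and 1 week after FT this was 14.3% of the list, against 0.757% and 1.81% of all tested genes. It also called Mia lower at 2 weeks after FT and in the mean of the injured groups. With Cd24a this was 28.6% of the list in both, against 2.22% and 4.09% of all tested genes. Mia had 50.9 ± 30.3 (SD, n = 3) in NI, against 11.3 ± 2.12 (SD, n = 3) in FT 2 weeks, and Cd24a had 68.1 ± 40.6 (SD, n = 3) and 17.1 ± 5.52 (SD, n = 3). S100b (1297 ± 846 (SD, n = 3) in NI, against 1858 ± 305 (SD, n = 3) in FT 2 weeks) and Vim (142 ± 6.31 (SD, n = 3) and 150.3 ± 28.7 (SD, n = 3)) were not called. Nor were Prom1 (15.7 ± 7.79 (SD, n = 3) and 6.89 ± 2 (SD, n = 3)), Sox2 (27 ± 10.1 (SD, n = 3) and 17.5 ± 5.46 (SD, n = 3)) and Nes (2.62 ± 1.47 (SD, n = 3) and 5.18 ± 2.42 (SD, n = 3)).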

How the data were processed

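Live eGFP+ cells were sorted from the spinal cord of NI, HS and FT mice, and their polyA RNA was sequenced in 12 libraries of 5 groups, as grouped by the labels. Per the labels, the authors used TopHat2 2.0.9 for alignment (mm10, GRCm38), HTSeq 0.5.4p3 for gene counting and edgeR 3.3.6 for normalization. The deposited signal values are normalized counts, 1 column per library, and 100% of them turned into whole reads within 1e-06 when divided by 1 factor per column. The reads per library were 8270643 to 15562378.

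The members and gene lists were chosen with earlier results of these data known. Members were matched by RefSeq symbol or synonym, and gene positions and exon lengths come from the GRCm38 annotation. Log2 of the normalized count plus 1 was fitted with limma-trend (limma 3.58.1, R 4.3.3) in 1 model of 5 group means, for the 16388 genes whose mean reached 0.5 in some group, with Benjamini-Hochberg adjustment over all of them. The residual and prior degrees of freedom were 7 and 3.687. The model was also run on simulated counts, whose outcome is not given here. These were drawn gene by gene, without shifts that many genes of a library share. The likelihood ratio test (trended and tagwise dispersions) and the quasi-likelihood test of edgeR 4.0.16 and DESeq2 1.42.0 were run on the recovered reads, and their FDRs are over all genes too. Per-library values are given for Foxj1, Rfx2 and Rfx3, the 2 most abundant members of each role, members called by either main test, and the 3 widest and 3 narrowest in range among those with a mean of at least 1. Other alternatives were pseudocounts of 0.25 and 4, other filters and scalings, a replicate block, array quality weights and each replicate left out. Leaving out replicates in the likelihood ratio test was chosen after seeing the data. Promoter windows are those of RefSeq (GRCm38.p6).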

Additional observations from a re-analysis of the deposited data

Results flagged for a closer look

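The spoke stalk gene Rsph3a moved to opposite sides of its NI mean in 2 pairs of injured groups. Every HS 1 week library (3.64, 3.64 and 3.43 normalized counts) lay above the NI mean, and the FT 1 week library (2.02) lay below it, with an FT to HS ratio of means of 0.565. Both HS 2 weeks libraries (3.13 and 2.64) also lay below the NI mean, with a ratio of HS 2 weeks to HS 1 week of 0.808. These differences were flagged by their directions and were not tested as such, and with 1 library at FT 1 week such an opposition needs little. Neither gene-wise comparison between these groups called Rsph3a. No group had the 4 libraries needed to look for a single library apart from its group.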

How the results depend on the processing

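The 9 limma-trend counts of 0 members were also 0 with pseudocounts of 0.25 and 4, no filter, both rescalings, calls by adjusted p with no fold threshold, and the quasi-likelihood test with TMM. They were 0 with the stricter filter too, which leaves out low members such as Tekt2. A model of the 2 groups compared, not run for the mean of the injured groups, also gave 0. So did a model that omits the FT 1 week library (where it applies). With array quality weights the counts were 24 (HS 1 week against NI), 1 (HS 2 weeks), 16 (FT 1 week), 29 (FT 2 weeks) and 33 (mean of the injured groups). The likelihood ratio test gave 2 (HS 2 weeks), 3 (FT 1 week), 17 (FT 2 weeks) and 17 (mean of the injured groups), and DESeq2 gave 2, 2, 17 and 14. Leaving out 1 replicate moved the limma-trend counts between 0 and 1 at FT 1 week, between 0 and 14 at FT 2 weeks and between 0 and 14 in the mean, each rise coming without NI replicate 1. It moved the counts of the likelihood ratio test between 0 and 15 at HS 2 weeks, 0 and 10 at FT 1 week, 1 and 27 at FT 2 weeks and 4 and 31 in the mean, and the FT 2 weeks count was lowest without NI replicate 2. The shares of all tested genes called by DESeq2 or with a replicate left out are not given, so these counts do not show a change particular to the members. The cause of these differences was not tested.

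The labels do not say whether same-numbered libraries share more than a number. Their deviations from the group means correlated from -0.478 to 0.718, which cannot settle this with so few libraries per group. With the replicate block, which leaves out the single FT 1 week library, 0 members were called in each comparison that could be fitted, as without it. No named gene was called in the main limma-trend fit, so none could lose a call in an alternative. Of 1610 alternative values of 69 named log2 fold changes, 1454 kept their direction and stayed uncalled, 154 kept it and were called, and 2 changed sign. These were Dnah1 at 2 weeks after FT, which ranged from -0.0766 (without FT 2 weeks replicate 2) to 0.292 with 1 replicate left out, and Dnah8 in the mean of the injured groups, which ranged from -0.12 to 0.00711 (without NI replicate 2). The median log2 fold change at 1 week after HS moved to -1.07 with array quality weights. Rescaled to the same total, 5 of the 12 summed levels moved by more than the SD of their group (FT 1 week, by more than counting error). HS 2 weeks moved to 193.9 and 208.4, FT 1 week to 141 and FT 2 weeks replicates 2 and 3 to 170 and 183.1. All stayed below the lowest NI library (231.2). Rescaling by median ratios moved none by this measure. Members rest on as few as 1 read in a library, and a single library stood for FT at 1 week, which limits what these values can show.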
